A study of Mus musculus with 9 samples.

Results

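The unfolded protein response and the integrated stress response were followed in mouse liver macrophages through 10 genes, taken as the rows of the count table with the symbols Atf4, Ddit3, Trib3, Asns, Chac1, Sesn2, Xbp1, Hspa5, Herpud1 and Atf6. All 10 symbols were found among the 23413 genes of the table. Counts were high enough in 8 of them to be tested, and Trib3 and Asns were left out of the tests because 7 and 6 of the 9 libraries held no count of them. The test covered 11393 genes in all.

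C57BL/6 male mice were 5 weeks old when they were placed on normal chow (ND) or a high-fat diet (HFD), and livers were taken after 8 weeks. From week 3 the HFD-fed mice received either the PEG vehicle (Vehicle) or 2 mg/kg diphenyleneiodonium (DPI) by intraperitoneal injection every 5 days. DPI is a small molecule known as an inhibitor of NADPH oxidases and other flavoenzymes, and in this study as an agonist of the receptor GPR3. Macrophages were sorted as F4/80+CD11b+Gr1low cells, a gate meant to leave out Gr1-high neutrophils, and their polyadenylated RNA was sequenced, giving 2 ND, 3 Vehicle and 4 DPI libraries. ND mice differed from Vehicle mice in diet and also in that no vehicle injection is recorded for them, and these cannot be told apart. Each library is titled for a single mouse, and the study describes more mice per group than there are libraries, so it remains unstated whether a library holds cells of that mouse alone. The p-values measure the spread between these libraries. The treatment field of the labels instead gives 500 nM DPI for 24 h, and the in vivo schedule of the series design was followed.

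Total counts were between 3534325 and 15585775 per library, and the ribosomal transcript Rn45s took 27 to 44.5% of them. The 2 ND libraries were less alike (Spearman correlation across genes of 0.74) than the Vehicle libraries (0.867 to 0.88) or the DPI libraries (0.838 to 0.887). The 13 general macrophage markers summed to 16000 to 45000 CPM (read counts scaled to a common library size, with TMM factors), of which Lyz2, also expressed by monocytes and neutrophils, made up most; the other 12 summed to 1820 to 2890 CPM. Monocyte markers summed to 3890 to 7590 CPM, neutrophil markers to 582 to 4990 CPM, and the 12 Kupffer cell markers to 236 to 975 CPM, of which Id3 alone gave 136 to 918 CPM. Of the Kupffer cell markers, Clec4f had no count in 3 of 9 libraries and Marco had a single count in DPI 1 and none elsewhere. The libraries are called liver macrophages here after the sort, and the neutrophil levels are those found after the Gr1low gate.

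The unfolded protein response answers to misfolded protein in the endoplasmic reticulum (ER) through 3 membrane sensors, PERK, IRE1 and ATF6. PERK phosphorylates the translation factor eIF2α, as do other kinases that sense amino acid shortage, haem lack or viral RNA, and this favours translation of ATF4, the shared output of the integrated stress response. IRE1 splices Xbp1 mRNA to yield an active transcription factor, and ATF6 is cut in the Golgi to release one. Atf4 is regulated largely by translation, and Xbp1 by splicing, so that counts per gene show neither ATF4 protein nor spliced Xbp1.

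The known response elements were searched in the promoters of the 10 genes, since the arms act on their targets through such elements. RefSeq promoters (GRCm38.p6) were matched for 9 of them, and the 250 bases before the start were read on both strands. The ER stress response element ERSE (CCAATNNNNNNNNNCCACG) was found in Hspa5, ERSE-II (ATTGGNCCACG) in Herpud1, and the composite C/EBP-ATF element CARE (TGATGNAA) in Asns, Chac1 and Herpud1. Of all 32841 promoters, 0.113% hold ERSE, 0.0304% ERSE-II and 3.45% CARE. In the sequences here, given 5′ to 3′ on the strand of the gene, the capitals mark the element. The Chac1 and the second Herpud1 match are on the opposite strand, so that CARE appears there as its reverse complement. The Hspa5 and Asns windows were kept short because the GENCODE gene models start further out and include them.
Hspa5 ERSE, chr2:34772020-34772048, + strand: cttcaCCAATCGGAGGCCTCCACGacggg
Herpud1 ERSE-II, chr8:94386352-94386412, + strand: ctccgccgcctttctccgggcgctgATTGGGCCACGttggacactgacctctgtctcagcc
Herpud1 CARE, chr8:94386292-94386349, + strand: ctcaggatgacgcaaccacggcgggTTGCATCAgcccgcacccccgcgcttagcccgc
Asns CARE, chr6:7693214-7693243, - strand: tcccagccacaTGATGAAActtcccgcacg
Chac1 CARE, chr2:119351024-119351081, + strand: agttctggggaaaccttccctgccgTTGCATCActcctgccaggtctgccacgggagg
None of the 3 elements was matched in the 250 bases of Atf4, Ddit3, Trib3, Sesn2 or Xbp1. A match is a description of the letters and does not show that a factor binds there. Herpud1 was the only one of the 9 genes with both an ER stress element and a CARE.

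Per kilobase of exon, the 3 genes with the highest mean level over the 9 libraries were Xbp1 (58.7 ± 15.2 CPM per kb, SD, n = 9), Hspa5 (51.4 ± 15.1) and Atf4 (49.2 ± 12.8), and these 3 did not differ beyond their spread. Herpud1 followed at 28 ± 9.37 CPM per kb and Ddit3 at 15.8 ± 8.39, and then Atf6 at 7.91 ± 3.64. Sesn2 lay at 1.69 ± 0.896 CPM per kb. Chac1, Asns and Trib3 came last, at 0.631, 0.206 and 0.0905 CPM per kb, each with an SD larger than its mean. The stress regulators and the ER chaperone were thus well covered in these macrophages, and several classical ATF4 targets were near the limit of detection, since a floor of 3 counts amounts to between 0.184 and 1.02 CPM.

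**Figure D1:**
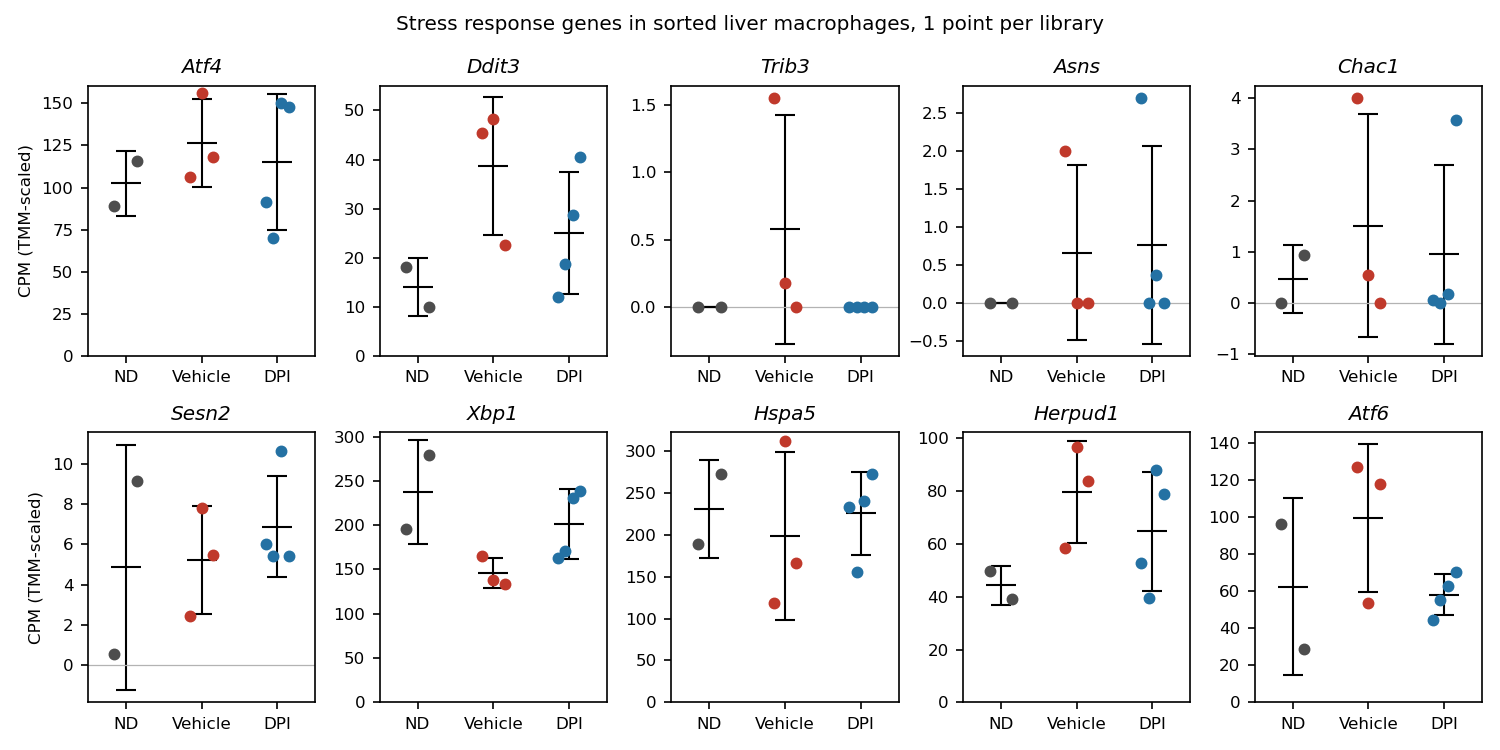
CPM of the 10 genes (y axis, own scale per gene) in each ND, Vehicle and DPI library (points), with the mean and SD of each group (bars). The 3 Vehicle libraries lie above both ND libraries for Ddit3 and Herpud1 and below both for Xbp1, and Trib3, Asns and Chac1 are at or near 0 in most libraries.

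Atf4 encodes the transcription factor at the head of the integrated stress response (chr15:80255184-80257541, + strand, GRCm38, a single merged exon). Its level was 88.9 and 116 CPM in ND, 106, 156 and 118 CPM in Vehicle, and 91.6, 70, 150 and 148 CPM in DPI. The 3 groups overlapped. The log2 fold change was 0.30 (SE 0.38, edgeR adjusted p = 0.799) for Vehicle against ND, and -0.14 (SE 0.31, adjusted p = 0.999) for DPI against Vehicle, with a 95% interval of -0.81 to 0.54. Atf4 mRNA therefore passed no test, and the interval for DPI lies inside a 2-fold change in either direction. The sign for DPI turned without DPI 2 (0.03) or Vehicle 2 (0.04).

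Ddit3 encodes CHOP, the pro-apoptotic C/EBP family factor that ATF4 induces (chr10:127290774-127296288, + strand, 4 merged exons). It had 18.2 and 9.9 CPM in ND, 45.3, 48.2 and 22.5 CPM in Vehicle, and 12, 18.7, 28.6 and 40.5 CPM in DPI. Every Vehicle library was above both ND libraries, and the DPI libraries ran from the ND range to near the top of the Vehicle range. Ddit3 was 2.75-fold higher in Vehicle than in ND (log2 fold change 1.46, SE 0.59, 95% interval 0.18 to 2.74, edgeR unadjusted p = 0.0283), which passes the threshold the study used, an unadjusted p under 0.05 and at least a 2-fold change. It did not pass after adjustment over all genes (adjusted p = 0.339). Ddit3 was the only one of the 8 tested genes to pass this threshold for the diet, against 11.7% of all genes (7.03% as higher and 4.63% as lower). No member passed adjustment, and 0.0614% of all genes did. The call was lost without ND 2 (log2 fold change 1.12), Vehicle 1 (1.39) or Vehicle 2 (1.27), and with scaling by library size alone (1.19). Between DPI and Vehicle, Ddit3 had a log2 fold change of -0.63 (SE 0.47, 95% interval -1.64 to 0.37, adjusted p = 0.999). In the annotation, 68 bases, or 4% of the Ddit3 exon length, are shared with Mars on the opposite strand, 13 bases (0.8%) with Gm4189 on the opposite strand and 105 bases (6.1%) with a second Ddit3 entry on the same strand, so that a small part of its reads may be uncertain.

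The summed level of 14 genes that respond to tissue dissociation was higher in every Vehicle library than in both ND libraries, as Ddit3 was. Within each group, the sum and Ddit3 did not rank the libraries in the same order. The 14 genes summed to 7750 to 9920 CPM in ND, 11700 to 17700 CPM in Vehicle and 7220 to 13600 CPM in DPI, with no gene of the list at 0 in a whole group. For 7 of the 14 (Jun, Egr1, Dnajb1, Ier3, Zfp36, Nr4a1 and Dusp1) every Vehicle library was above both ND libraries, and for the other 7, Fos among them, the groups overlapped. Markers of plasma and B cells, a lineage rich in Xbp1, were at 29.1 to 158 CPM in ND, 150 to 357 CPM in Vehicle and 109 to 462 CPM in DPI, and 4 of 8 were higher and Sdc1 lower in every Vehicle library than in both ND libraries. Markers of T and NK cells were at 82.9 and 288 CPM in ND, 266 to 374 CPM in Vehicle and 223 to 461 CPM in DPI, and 3 of 9 (Cd3e, Cd3d and Il2rb) were higher and none lower in every Vehicle library than in both ND libraries. Of the 13 general macrophage markers, Cd68 and Aif1 were higher and Emr1, C1qa and C1qc lower in every Vehicle library. So were the monocyte markers Ly6c2 and Plac8 (higher) and Ccr2 (lower), of 6, and the neutrophil markers Mpo and Cxcr2 (higher) and Camp (lower), of 8. Of all 11393 genes tested, 15% were higher and 12.5% lower in every Vehicle library than in both ND libraries. Several of these marker counts lie near those shares. The Kupffer cell sum was 236 to 275 CPM in ND and 478 to 975 CPM in Vehicle through Id3, and without Id3 it was 16.2 to 139 CPM in ND and 27.3 to 61 CPM in Vehicle. The dendritic cell sum was 55.2 to 108 CPM in ND and 193 to 310 CPM in Vehicle through Ccr7, and without Ccr7 it was 55.2 to 61.3 CPM in ND and 33.7 to 78.6 CPM in Vehicle. The sums of hepatocyte markers (114 to 188 CPM in ND, 18 to 46.4 CPM in Vehicle) and sinusoidal endothelial markers (117 to 182 CPM against 9.43 to 12.9 CPM) were higher in ND. Of 6 endothelial markers, Stab2, Clec4g and Kdr were lower and Pecam1 higher in every Vehicle library than in both ND libraries. Of 8 hepatocyte markers, Alb, Ttr and Serpina1a were lower and none higher. The part of these cells and genes in the results was not tested, and in such bulk libraries a smaller share of a cell type cannot be told apart from less RNA per cell.

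Trib3, a pseudokinase that feeds back on ATF4 and AKT, is a target of ATF4 and CHOP (chr2:152337422-152344032, - strand). It had 7, 1 and 0 counts in the 3 Vehicle libraries and none in the 2 ND or the 4 DPI libraries. Asns, which makes asparagine (chr6:7675169-7693254, - strand), had 9 counts in Vehicle 1, 44 in DPI 1, 2 in DPI 3 and none in the other 6 libraries. Without the filter on low counts, Trib3 passed the study threshold as lower in DPI than in Vehicle (edgeR unadjusted p = 0.0328), from the 8 counts given above, 7 of them in Vehicle 1.

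Chac1, which degrades glutathione (chr2:119351229-119354381, + strand), had 0 and 5 counts in ND, 18, 3 and 0 in Vehicle, and 1, 0, 1 and 35 in DPI. A single library held most of the counts in each group. Its log2 fold changes of 1.66 (SE 2.43) for the diet and -0.60 (SE 1.87) for DPI have intervals that span more than a 10-fold change on either side, and neither passed (edgeR adjusted p = 0.833 and 0.999). Sesn2, a leucine-sensing inhibitor of mTORC1 (chr4:132492032-132510501, - strand), had 0.546 and 9.15 CPM in ND, 2.44, 7.8 and 5.45 CPM in Vehicle, and 6.01, 5.43, 10.6 and 5.41 CPM in DPI. The 2 ND libraries differed 16.7-fold, more than any group mean did, and the sign of the diet comparison (log2 fold change 0.11, SE 1.04) turned without ND 1 (-0.79) or Vehicle 2 (-0.30), while without ND 2 it was 3.25 and passed the study threshold.

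Xbp1 encodes the factor that IRE1 activates by splicing (chr11:5520659-5525893, + strand). Its level was 196 and 279 CPM in ND, 165, 138 and 134 CPM in Vehicle, and 163, 171, 231 and 239 CPM in DPI. All 3 Vehicle libraries were below both ND libraries, while the DPI libraries spanned the gap between them. Xbp1 was lower in Vehicle than in ND by less than 2-fold (log2 fold change -0.70, SE 0.30, 95% interval -1.36 to -0.05, edgeR unadjusted p = 0.0367, adjusted p = 0.356), so it did not pass the fold threshold. DPI against Vehicle gave a log2 fold change of 0.46 (SE 0.26, 95% interval -0.10 to 1.02, adjusted p = 0.999).

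Hspa5 encodes BiP, the main ER chaperone of the Hsp70 family, which holds the sensors inactive and is a textbook ATF6 target (chr2:34771970-34777547, + strand). It had 189 and 272 CPM in ND, 118, 311 and 166 CPM in Vehicle, and 233, 156, 240 and 272 CPM in DPI. The Vehicle libraries alone spanned a 2.63-fold range that enclosed all ND and DPI libraries. The log2 fold changes of -0.22 (SE 0.40) for the diet and 0.18 (SE 0.33) for DPI did not pass (edgeR adjusted p = 0.876 and 0.999), and the sign turned for the diet without ND 2 or Vehicle 1 (0.10 each) and for DPI without Vehicle 1 (-0.09). Hspa5 carries the ERSE printed above.

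Herpud1, a membrane protein that organises ER-associated degradation (chr8:94386438-94395377, + strand), had 49.7 and 39.2 CPM in ND, 58.6, 96.7 and 84 CPM in Vehicle, and 53, 39.4, 87.9 and 78.8 CPM in DPI. The Vehicle libraries lay above both ND libraries. Its log2 fold change for the diet was 0.84 (SE 0.41, 95% interval -0.03 to 1.72, adjusted p = 0.4 by edgeR), which did not pass, although it did without Vehicle 1 (1.07). For DPI it was -0.30 (SE 0.33, adjusted p = 0.999). Atf6, the sensor itself (chr1:170704674-170867771, - strand), had 96.2 and 28.8 CPM in ND, 127, 53.9 and 118 CPM in Vehicle, and 44.4, 55.4, 62.7 and 70.4 CPM in DPI. Vehicle 1 and 3 were above all DPI libraries and Vehicle 2 was among them. The log2 fold change was -0.78 for DPI against Vehicle (SE 0.41, 95% interval -1.65 to 0.10, edgeR adjusted p = 0.999) and 0.67 for the diet (SE 0.50, adjusted p = 0.598). Without Vehicle 2 the first became -1.08 and passed the study threshold, and without ND 1 the second became 1.80 and passed it.

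Across the 8 tested genes, 6 had a positive and 2 a negative log2 fold change in Vehicle against ND, with a median of 0.49 beside 0.03 for all genes, of which 51.5% were positive. The groups did not overlap for 3 of them, Ddit3 and Herpud1 (higher in Vehicle) and Xbp1 (lower), where 15% of all genes did not overlap with Vehicle higher and 12.5% with Vehicle lower. For DPI against Vehicle, 0 of 8 passed the threshold, which 2.84% of all genes did (1.5% as higher and 1.34% as lower), and 0 had groups that did not overlap (3.38% higher and 2.48% lower of all genes). The median was -0.22, with 3 of 8 positive, beside 0.04 and 53.1% positive for all genes. No gene of the whole table passed adjustment by edgeR in that comparison, with 470 (4.13%) at an unadjusted p under 0.05 and 2 past adjustment by DESeq2. For DPI against ND, 0 of 8 passed, against 9.29% of all genes (6.24% as higher and 3.05% as lower), and 0.00878% of all genes passed adjustment. None of the 8 had groups that did not overlap there (11.7% of all genes higher and 8.5% lower), 5 of 8 were positive beside 52.1% of all genes, and the smallest unadjusted p by edgeR was 0.161, for Ddit3. These comparisons share libraries: DPI and ND were each set against the same Vehicle libraries, so that a high or low Vehicle library moves the first 2 in opposite directions.

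**Figure D2:**
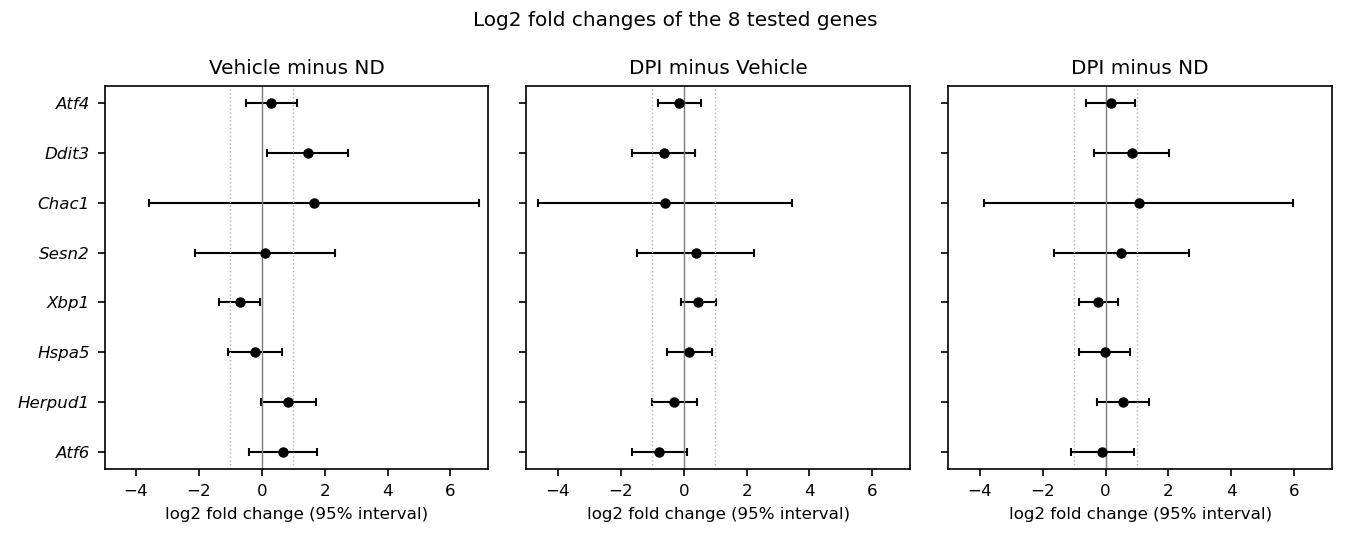
Log2 fold change (x axis) with its 95% interval for the 8 tested genes in the 3 comparisons, from the edgeR fit; dotted lines mark a 2-fold change. In Vehicle minus ND the interval leaves 0 for Ddit3 (0.18 to 2.74) and Xbp1 (-1.36 to -0.05), and in both DPI panels every interval includes 0.

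Ratios of raw counts within a library do not depend on how libraries are scaled, and are given as a description since the pairs were chosen after the values were seen. Ddit3 to Xbp1 was 0.0355 to 0.0928 in ND, 0.169 to 0.349 in Vehicle and 0.0738 to 0.17 in DPI. The ratio was higher in each Vehicle library than in either ND library. Xbp1, the denominator here and for Atf6, Herpud1 and Hspa5 in what follows, was itself lower in every Vehicle library than in both ND libraries. Between Vehicle and DPI, Xbp1 overlapped. Ddit3 to Atf4 overlapped between the groups, at 0.0852 and 0.205 in ND, 0.192 to 0.429 in Vehicle and 0.131 to 0.274 in DPI. Atf6 to Xbp1 was 0.389 to 0.885 in Vehicle and 0.272 to 0.325 in DPI, without overlap, and the 2 ND libraries lay at 0.103 and 0.49. Herpud1 to Xbp1 was 0.141 to 0.253 in ND, 0.354 to 0.699 in Vehicle and 0.231 to 0.381 in DPI. Hspa5 to Xbp1 showed no such order, at 0.964 and 0.975 in ND, 0.715 to 2.25 in Vehicle and 0.912 to 1.43 in DPI.

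**Figure D3:**
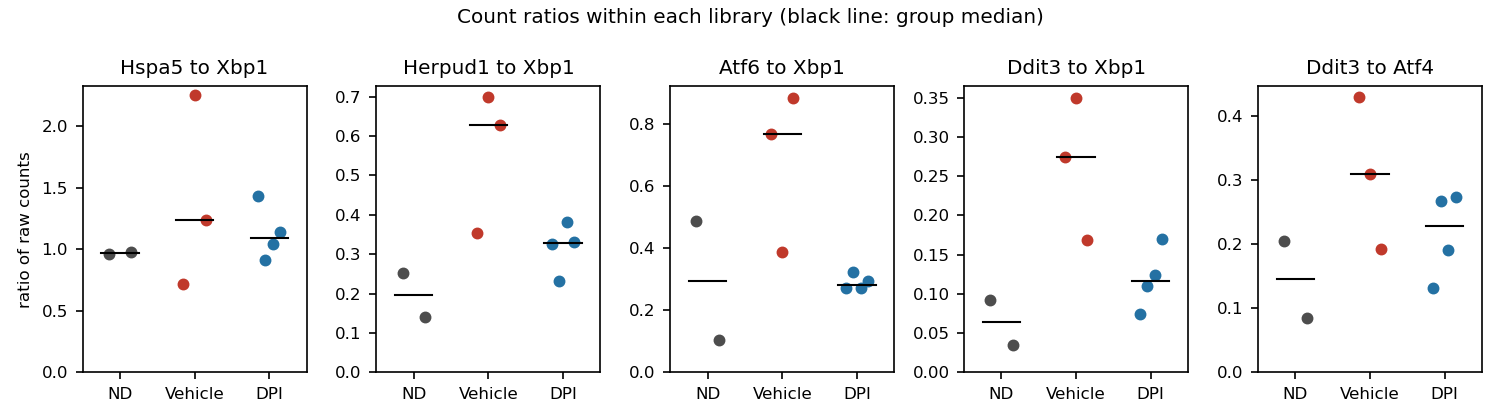
Ratio of raw counts of 2 genes (y axis, from 0) in each library (points), with the group median (line). Atf6 to Xbp1 is higher in the 3 Vehicle libraries (0.389 to 0.885) than in the 4 DPI libraries (0.272 to 0.325), and Ddit3 to Xbp1 is lower in both ND libraries (0.0355 to 0.0928) than in the Vehicle libraries (0.169 to 0.349).

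The wider pathway was read from 13 lists of textbook genes, 176 genes in all, of which 174 were in the table and 160 were tested. For the diet, 9 passed the study threshold as higher and 4 as lower, or 8.12% beside 11.7% of all genes, and none passed adjustment by edgeR in the fit reported (smallest adjusted p = 0.0606), with 17 at an unadjusted p under 0.05. For DPI against Vehicle, 2 passed as higher and 1 as lower, or 1.88% beside 2.84%. Both shares were below those of all genes. In what follows, rose and fell are used for genes past the unadjusted threshold of the study, and all adjusted p are given beside them.

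Most of these calls hung on single libraries or on the scaling. Of the 13 genes called for the diet, Ube2g2 and Eprs kept their call with each library left out and under each other setting tried, and the others lost it in at least 1 of these.

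**Figure D4:**
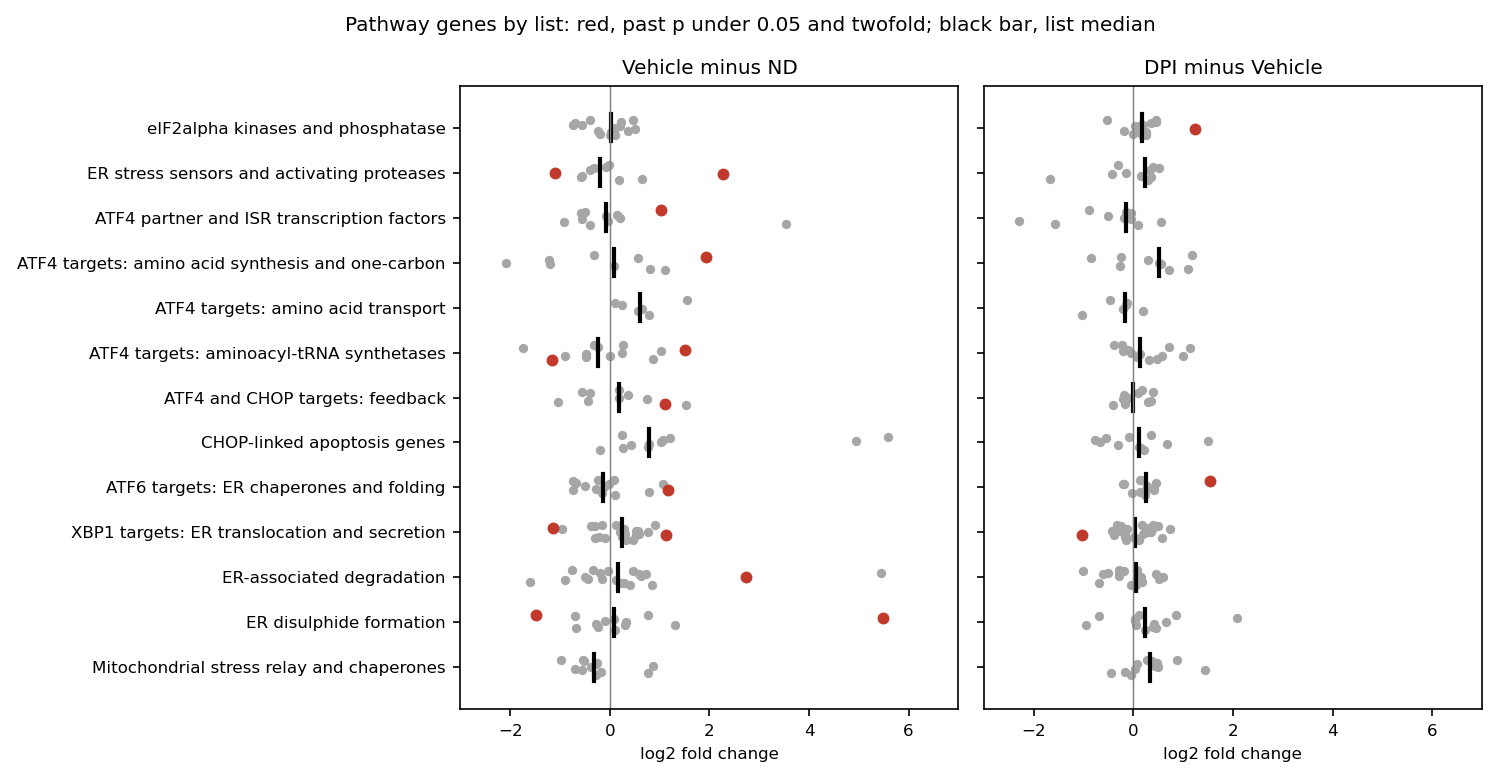
Log2 fold change (x axis) of the tested genes of each pathway list (points) for Vehicle minus ND and DPI minus Vehicle, with the list median (black bar) and genes past an unadjusted p under 0.05 and a 2-fold change in red. Called genes of one list lie on both sides of 0 in 4 lists for the diet, and list medians stay between -0.33 and 0.78.

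Of the ER-associated degradation list, 1 of 20 tested genes passed for the diet. Ube2g2, an E2 ubiquitin-conjugating enzyme of that pathway, had 45 and 18 counts in ND, 159, 273 and 125 in Vehicle, and 1103, 148, 339 and 516 in DPI. Its mean was 5.78 ± 3.42 CPM (SD, n = 2) in ND, 38.6 ± 9.7 CPM (n = 3) in Vehicle and 58.4 ± 8.25 CPM (n = 4) in DPI. Neither HFD group overlapped ND. The log2 fold change was 2.74 (SE 0.48, edgeR adjusted p = 0.0606) for Vehicle and 3.33 (adjusted p = 0.0531) for DPI against ND, which did not pass adjustment in the fit reported. Over the other settings and with each library left out, the adjusted p for the diet ran from 2.41e-05 (DESeq2) to 0.238 (only the 2 groups fitted), and it passed with DESeq2, with the edgeR likelihood ratio test, without a filter and without ND 2.

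Of the 14 ATF6-target chaperones and folding factors, 1 passed for the diet and 1 for DPI. Dnajc3, the ER co-chaperone P58IPK that also restrains PERK, rose with the diet (log2 fold change 1.16, SE 0.44, edgeR adjusted p = 0.314), from 15 ± 0.907 CPM in ND to 33.7 ± 5.01 CPM in Vehicle. Creld2, an ER folding factor, rose with DPI (1.55, SE 0.62, adjusted p = 0.999), from 9.69 ± 0.82 CPM in Vehicle to 28.4 ± 10.1 CPM in DPI, where the lowest DPI library was above all Vehicle libraries. Promoters were matched for 12 of these 14 genes, and 6 held an ERSE (Calr, Canx, Creld2, Dnajc3, Hsp90b1 and Pdia6), where 0.113% of all promoters do. They are named for this element and not for how they moved. Together with Hspa5, Derl3, Syvn1 and Ero1lb, 10 tested genes of the response carried one. These 10 had a median log2 fold change of 0.03 for the diet (5 positive, 5 negative) and 0.16 for DPI (7 positive, 3 negative), with 1 called in each. The positive share of all genes was 51.5% for the diet and 53.1% for DPI. Dnajc3 lost its call without ND 2 (1.13) and with scaling by library size alone (0.87), and Creld2 without DPI 1 (1.27) or any one of the Vehicle libraries (1.49 to 1.62).

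Markers of other cells differed in some DPI libraries. Eosinophil markers summed to 115, 113, 5.38 and 75.5 CPM in DPI 1 to 4 and to 6.94 to 8.89 CPM in Vehicle, and sinusoidal endothelial markers to 139, 75.7, 4.27 and 26.6 CPM in DPI and to 9.43 to 12.9 CPM in Vehicle. Neutrophil markers summed to 582 and 675 CPM in DPI 1 and 2, below the 2290 to 3520 CPM of Vehicle, and to 3210 and 4990 CPM in DPI 3 and 4. S100a8 and S100a9 made up most of that sum. Of the 8 neutrophil markers, only Camp did not overlap, and it went the other way. It was at 43, 29.5, 55.5 and 23.3 CPM in DPI 1 to 4 and at 11.1 to 22.5 CPM in Vehicle. Of the 14 dissociation genes, Fosb, Jun and Zfp36 were lower in every DPI library than in all Vehicle libraries, and none was higher. Of all genes tested, 2.48% were lower and 3.38% higher in this way. Creld2 was at 43.5 CPM in DPI 1 and at 23 to 23.7 CPM in the other 3 DPI libraries. The part of these cells in the changes with DPI was not tested.

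Among the XBP1 targets, 1 of 23 tested genes passed as higher and 1 as lower for the diet, and 1 as lower for DPI. Sec61a1, the pore of the ER translocon, had 119 ± 3.02 CPM in ND, 260 ± 107 CPM in Vehicle and 128 ± 31.4 CPM in DPI. It rose with the diet (log2 fold change 1.13, SE 0.40, edgeR adjusted p = 0.289) and fell with DPI (-1.03, SE 0.32, adjusted p = 0.999). Both calls rest on the same Vehicle libraries, and Vehicle 2, at 755 counts, was close to the 639 and 646 counts of ND. Spcs3, a signal peptidase subunit, fell with the diet (-1.14, SE 0.45, adjusted p = 0.332). The diet call of Sec61a1 was lost without ND 1 (1.11) or Vehicle 1 (0.97) and with library size alone (0.82), its DPI call with library size alone (-0.91) and without DPI 1 (-0.98), DPI 2 (-0.91), Vehicle 1 (-0.82) or Vehicle 3 (-0.88), and the Spcs3 call without ND 2 (-1.01), Vehicle 1 (-1.05) or Vehicle 3 (-0.87).

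Of the 11 partner and stress transcription factors, Atf3, an early stress factor, rose with the diet (log2 fold change 1.03, SE 0.44, edgeR adjusted p = 0.352). Its mean was 363 ± 69.7 CPM in ND, 742 ± 335 CPM in Vehicle and 402 ± 163 CPM in DPI. For DPI its log2 fold change of -0.88 (SE 0.35, adjusted p = 0.999) stayed under 2-fold, and passed it without DPI 3 or DPI 4 (-1.06 each), Vehicle 1 (-1.11) or Vehicle 3 (-1.04). It was smaller, with an unadjusted p above 0.05, without Vehicle 2 (-0.45), DPI 1 (-0.71) or DPI 2 (-0.75). The diet call was lost without ND 1 (0.86) or Vehicle 2 (0.60) and with library size alone (0.76), and the change came out just under 2-fold with DESeq2 and with RLE size factors (1.00 each). In the DPI comparison 9 of the 11 factors had a negative log2 fold change, where 53.1% of all genes had a positive one. The summed dissociation list was also higher in every Vehicle library than in both ND libraries, as Atf3 was, with the values given above.

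The ATF4 target lists showed no common direction of called genes. Of 13 aminoacyl-tRNA synthetases, which charge tRNAs with amino acids, Eprs rose (log2 fold change 1.51, SE 0.51) and Gars fell (-1.15, SE 0.44) with the diet, with edgeR adjusted p of 0.276 and 0.321. Got1, the cytosolic aspartate aminotransferase, rose with the diet (1.93, SE 0.84, adjusted p = 0.358), and the autophagy receptor Sqstm1 did as well (1.10, SE 0.40, adjusted p = 0.296). Gars lost its call without ND 2 (-1.09) or Vehicle 1 (-1.02), Got1 without ND 2 (1.07), Vehicle 2 (1.69) or Vehicle 3 (2.02), and Sqstm1 without ND 1 (0.86) or Vehicle 2 (0.75). Library size alone ended the calls of Got1 (1.62) and Sqstm1 (0.84), and a fit of only the 2 groups that of Got1 (1.93). The synthetase gene Sars passed as higher for DPI only without Vehicle 2 (1.14). Of the 6 tested amino acid transporters, all had a positive log2 fold change for the diet (median 0.60, beside 0.03 and 51.5% positive for all genes) and none passed. Of the 11 CHOP-linked apoptosis genes, 10 were positive (median 0.78), beside 51.5% of all genes, and none passed in the fit reported. The list mixes genes that promote and oppose apoptosis, with Bcl2 (0.78) and Bcl2l1 (1.21) among the latter. Casp12 (5.59) and Dapk2 (4.94) had no count in ND, and 11 and 7 counts in Vehicle 3 alone of the Vehicle libraries. Pmaip1, which encodes the pro-apoptotic NOXA, was just short of the threshold (log2 fold change 1.06, edgeR unadjusted p = 0.0526). It passed with DESeq2 (1.03), the likelihood ratio test (1.06), Rn45s left out (1.10), at least 10 counts in every library (1.07), no filter (1.07) and only the 2 groups fitted (1.06), and without ND 2 (1.46) or Vehicle 3 (1.37). A further 14 pathway genes of the table were left untested for low counts.

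The upstream arm was represented by 15 genes of eIF2, its kinases, its exchange factor eIF2B and its phosphatase. None passed for the diet, and Eif2s1, which encodes eIF2α itself, rose with DPI (log2 fold change 1.24, SE 0.42, edgeR adjusted p = 0.999), from 27.8 ± 11 CPM in Vehicle to 66.1 ± 25.2 CPM in DPI. The DPI and Vehicle libraries overlapped for Eif2s1. Of the 15 genes, 13 had a positive log2 fold change for DPI, with a median of 0.18, beside 53.1% and 0.04 for all genes. Of 10 tested sensors and proteases, Mbtps2, the site-2 protease that releases ATF6, rose with the diet (2.28, SE 0.91, adjusted p = 0.333) from 16 and 4 counts in ND to 46, 39 and 39 in Vehicle. Nfe2l1, a membrane-bound factor of the proteasome response, fell (-1.10, SE 0.49, adjusted p = 0.368). The calls were lost without Vehicle 1 for Eif2s1 (1.01), without ND 2 for Mbtps2 (1.64), and without ND 1 (-0.54), Vehicle 2 (-0.85) or Vehicle 3 (-1.03) for Nfe2l1. Mbtps2 also lost its call with library size alone (1.96) and Nfe2l1 without a filter (-1.09), and both did in a fit of only the 2 groups (2.28 and -1.10).

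Of the 13 ER disulphide genes, Prdx4, an ER peroxiredoxin, fell with the diet (log2 fold change -1.48, SE 0.58, edgeR adjusted p = 0.329), and Pdia5, a disulphide isomerase, passed as higher from very few counts. Pdia5 had none in both ND libraries, 9, 0 and 2 counts in Vehicle, and 51, 13, 11 and 46 in DPI. The Prdx4 call was lost without ND 1 (-0.80), Vehicle 1 (-1.37) or Vehicle 3 (-1.23), and the Pdia5 call without either ND library or Vehicle 1, with library size alone and with libraries thinned to the smallest total. Of the 12 mitochondrial stress and chaperone genes, 2 had a positive log2 fold change for the diet and 9 for DPI, and none passed in either comparison in the fit reported. Of all genes, 51.5% were positive for the diet and 53.1% for DPI. Hspa9 passed as lower for the diet without Vehicle 2 (-1.16).

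**Figure D5:**
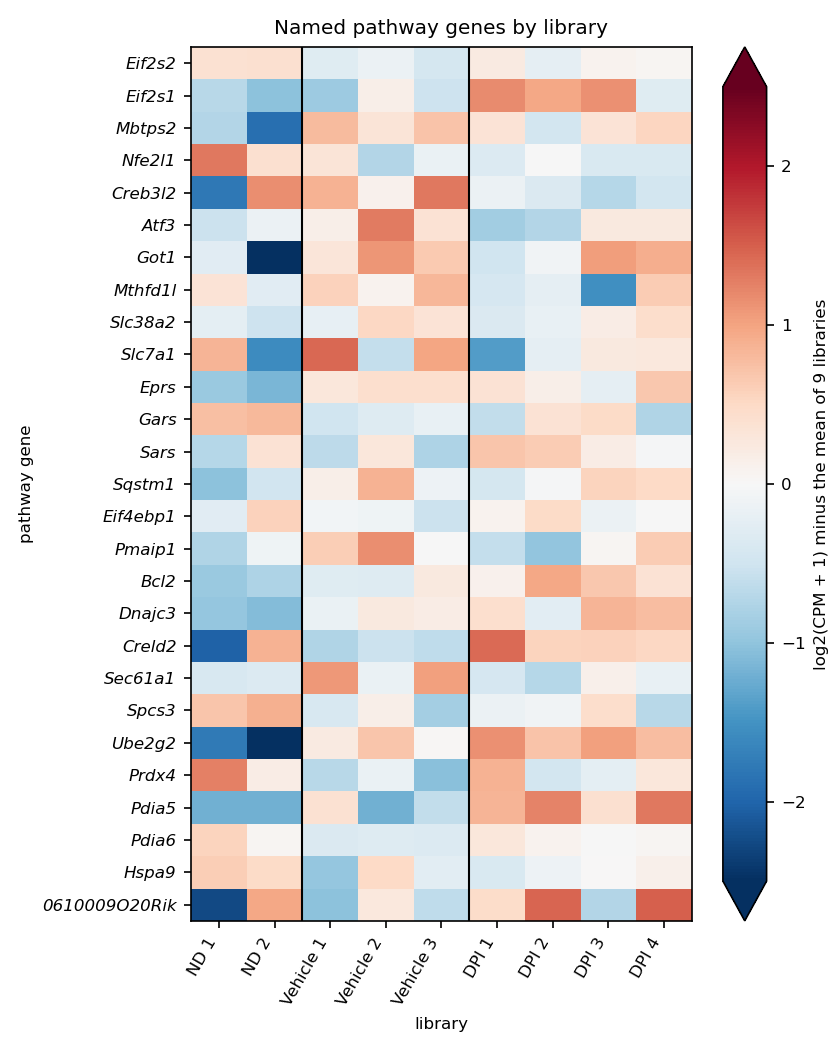
Log2(CPM + 1) of the named pathway genes (rows) in the 9 libraries (columns), minus the mean of the 9 libraries for each gene; red is above and blue below that mean, and black lines part ND, Vehicle and DPI. Ube2g2, Eprs and Dnajc3 are below their mean in both ND libraries, and Eif2s1 is above its mean in 3 of 4 DPI libraries.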

How the data were processed

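RNA was sequenced from sorted liver macrophages of 9 samples, and the authors deposited raw counts per gene symbol, 1 column per library. The methods of the study name bowtie2 and RSEM with the mm10 genome, while the submitters' processing notes name TopHat2 and edgeR. The annotation release is not given in the sources used here. Counts were used as deposited. Genes were filtered by filterByExpr, scaled by TMM and tested in one fit of all 9 libraries with the quasi-likelihood test of edgeR 4.0.16 (limma 3.58.1, R 4.3.3), with Benjamini-Hochberg adjustment over 11393 genes. The study's threshold, an unadjusted p under 0.05 and a 2-fold change, was used for calls. The biological coefficient of variation was 0.65. CPM use TMM-scaled totals. Intervals of fold changes come from this fit and include the spread between libraries, while the floor of 3 counts covers counting error only.

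The members and lists were chosen with earlier results of these data known. Named were all 10 genes and, from each list, the genes past the threshold for diet or DPI (at most 3 per list and comparison), or otherwise the gene with the smallest p. Of the latter, those not described in the text appear in the plot of named genes. Positions and exon lengths came from GENCODE M21 (GRCm38), and promoters from RefSeq (GRCm38.p6). The test was tried on simulated data for the diet comparison, where 200 of 11074 genes differed by 3 on the log2 scale. At a dispersion of 0.423, as in these data, 24.5% of the 200 passed adjustment and 91.5% (183) passed the threshold, as did 500 genes that had not been changed. Alternatives were DESeq2 1.42.0, other scaling and filters, a replicate block and each library left out. The 176 pathway genes include 2 that were not found in the table.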

Additional observations from a re-analysis of the deposited data

Results flagged for a closer look

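In the DPI group, the only one with 4 libraries, 1 library stood apart from the other 3 by Dixon's criterion for 5 of 37 genes examined. The rate of 1 in 20 for this criterion holds for normally distributed values. These CPM come from counts, some near 0, Trib3 had none in DPI, and the pathway genes were named by their p. No excess over that rate is therefore read from the 5 genes. Asns was at 2.7 CPM in DPI 1 and at most 0.371 CPM in the others, a gap of 0.863 of the range. Chac1 was at 3.57 CPM in DPI 4 and at most 0.186 CPM in the others (0.948). Sesn2 was at 10.6 CPM in DPI 3 beside 5.41 to 6.01 CPM (0.884). Creld2 was at 43.5 CPM in DPI 1 beside 23 to 23.7 CPM (0.962). Nfe2l1 was at 20.7 CPM in DPI 2 beside 15.8 to 16.2 CPM (0.905).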

How the results depend on the processing

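With 2 ND libraries and a biological coefficient of variation of 0.65, 24.5% of simulated log2 fold changes of 3 passed adjustment, and smaller changes were not simulated. Scaling by library size alone shifted the all-gene median for the diet from 0.03 to -0.26 (log2) and ended the Ddit3 call, leaving 0 of the 8 members called. It gave 933 genes lower and 1 past adjustment for the diet, 101 lower for DPI against Vehicle and 624 lower for DPI against ND, and turned Sesn2 for the diet (-0.15) and Atf4 for DPI against ND (-0.02). At least 10 counts in every library gave 381 genes higher, 345 lower and 1 past adjustment for the diet, 65 higher for DPI against Vehicle and 245 higher for DPI against ND. Without a filter, 52 genes passed adjustment for the diet and 22 for DPI against ND, and 281 were higher and 321 lower for DPI against Vehicle, with 1 member called there, Trib3. DESeq2 gave 312, 2 and 219 genes past adjustment for diet, DPI against Vehicle and DPI against ND, and the edgeR likelihood ratio test 280, 1 and 186, beside 7, 0 and 1 in the fit reported. Fits of only the 2 groups compared gave 0 past adjustment for the diet and for DPI against ND, and 239 genes lower for DPI against Vehicle. Thinned libraries gave 1 past adjustment for the diet. Deviations of log2 CPM from the group mean correlated at 0.0355, -0.00602 and 0.0283 between same-numbered Vehicle and DPI libraries. For same-numbered ND libraries they correlated at 0.0596 and 0.0841 with Vehicle, and at -0.0222 and 0.0403 with DPI. With so few libraries per group, such values cannot show whether replicate numbers pair the libraries. The replicate block gave 287 genes lower and 0 past adjustment for the diet, 251 lower for DPI against Vehicle and 0 past adjustment for DPI against ND, with 8 pathway genes called for the diet and 6 for DPI against Vehicle. With the block, Atf4 (-0.13) and Chac1 (-1.83) turned for DPI against ND, and the call of no member changed. Among the named pathway genes, the block ended the diet calls of Atf3 (0.88), Dnajc3 (1.03), Got1 (1.98), Nfe2l1 (-1.04), Pdia5, Prdx4 (-1.15) and Sec61a1 (0.83), and added Pmaip1 for the diet (1.07) and Atf3 for DPI against Vehicle (-1.07).

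Leaving out each library in turn moved the diet counts between 678 and 1793 genes higher, 349 and 841 lower, 1 and 568 past adjustment, 0 and 2 members and 9 and 34 pathway genes called, the highest without ND 2 in each but the members. For DPI against Vehicle they lay between 102 and 214 higher, 65 and 307 lower, 0 and 1 member and 1 and 5 pathway genes, and for DPI against ND between 565 and 1812 higher, 265 and 814 lower, 1 and 572 past adjustment, 0 and 1 member and 8 and 34 pathway genes. Signs turned in these fits for the diet in Hspa5 (-0.70 to 0.10) and Sesn2 (-0.79 to 3.25), for DPI against Vehicle in Atf4 (-0.29 to 0.04) and Hspa5 (-0.09 to 0.66), and for DPI against ND in Atf4 (-0.01 to 0.40), Atf6 (-0.70 to 1.02), Hspa5 (-0.26 to 0.28), Sesn2 (-0.41 to 3.63) and Xbp1 (-0.46 to 0.06). Where 1 ND library remained, it was assumed to vary like the other groups. The cause of these changes was not tested.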
